A study of Mus musculus with 6 samples.

Results

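The 10 genes described here encode proteins of the distal nephron that handle salt, calcium and magnesium or are made by the same cells. They were chosen by symbol, as Egf, Umod, Slc12a1, Slc12a3, Kcnj1, Pvalb, Trpm6, Calb1, Slc8a1 and Kl, and all 10 were found among the 28208 genes listed for every one of 6 mouse kidneys. The kidneys had been dissociated and profiled by droplet single-cell RNA sequencing, which counts unique molecular identifiers (UMIs), 1 per captured RNA molecule. The 2 naive kidneys came from male C57BL/6 (B6) mice aged 10 to 12 weeks and had not been transplanted. The 2 rejecting kidneys were from BALB/c mice, with an age of 6 to 7 weeks on the labels, and were removed on day 15 from bilaterally nephrectomized B6 male recipients that had no other treatment. The 2 tolerized kidneys were the same kind of graft, taken on the same day, from recipients infused with BALB/c splenocytes fixed with the cross-linker ECDI before and after transplantation. The study gives its BALB/c donors as male or female, so the sex of each graft is not known. Naive and transplanted kidneys therefore differed in strain and age, and possibly in donor sex, as well as in surgery and allograft response. Their matrices were also made with different gene lists, and their cell barcodes hardly met: a naive and a transplanted library shared 0 to 4 barcodes, against 111 in the naive pair and 18 to 35 in each pair of grafts. These differences cannot be told apart.

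The thick ascending limb takes up sodium, potassium and chloride through the cotransporter encoded by Slc12a1, with potassium recycled into the urine through the channel encoded by Kcnj1, and it secretes uromodulin, the product of Umod. The distal convoluted tubule that follows takes up sodium and chloride through the thiazide-sensitive cotransporter encoded by Slc12a3, and magnesium through the channel encoded by Trpm6. Parvalbumin (Pvalb) and calbindin-D28k (Calb1) bind calcium inside the cell, and the sodium-calcium exchanger encoded by Slc8a1 moves calcium out across the basolateral membrane. Egf encodes the precursor of epidermal growth factor, a hormone that stimulates magnesium uptake, and Kl encodes Klotho, the co-receptor for fibroblast growth factor 23.

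The genes lie on 10 chromosomes of the GRCm38 assembly, to which the mm10 build of the submitters corresponds. By the GENCODE annotation, the salt transporter genes are Slc12a1 at chr2:125152505-125230002, Slc12a3 at chr8:94329201-94366214 and Kcnj1 at chr9:32372493-32399197, all on the plus strand. The calcium and magnesium genes are Pvalb at chr15:78191114-78206400 and Slc8a1 at chr17:81373105-81738377 on the minus strand, with Trpm6 at chr19:18749983-18892511 and Calb1 at chr4:15881264-15908064 on the plus strand. Egf lies at chr3:129677565-129755316 and Umod at chr7:119462711-119479282 on the minus strand, and Kl at chr5:150952607-150993817 on the plus strand. Promoters are shown for 4 of the 5 members called in distal convoluted tubule-like cells of both kinds of graft, where Egf and Kl were lower and Slc12a3 and Slc8a1 higher. The promoter of Slc12a1, which was also lower, is not shown because the gene was at a low level in those cells. Each runs 5′ to 3′ on the strand of its gene from 250 bases before to 50 bases after the RefSeq start in GRCm38.p6, and capitals mark the motif letters found on either strand.
Egf, chr3:129755273-129755572, minus strand: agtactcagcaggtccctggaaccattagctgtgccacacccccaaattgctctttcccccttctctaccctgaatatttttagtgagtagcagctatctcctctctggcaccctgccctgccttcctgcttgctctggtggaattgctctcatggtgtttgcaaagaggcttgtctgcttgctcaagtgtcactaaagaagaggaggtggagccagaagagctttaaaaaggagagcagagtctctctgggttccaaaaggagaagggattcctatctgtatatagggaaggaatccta
Kl, chr5:150952357-150952656, plus strand: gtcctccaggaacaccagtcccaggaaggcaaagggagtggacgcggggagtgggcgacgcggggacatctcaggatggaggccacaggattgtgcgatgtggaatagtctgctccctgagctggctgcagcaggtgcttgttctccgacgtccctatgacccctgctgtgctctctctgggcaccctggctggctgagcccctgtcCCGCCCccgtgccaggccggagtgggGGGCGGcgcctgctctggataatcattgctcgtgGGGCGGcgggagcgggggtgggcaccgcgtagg
Slc12a3, chr8:94328958-94329257, plus strand: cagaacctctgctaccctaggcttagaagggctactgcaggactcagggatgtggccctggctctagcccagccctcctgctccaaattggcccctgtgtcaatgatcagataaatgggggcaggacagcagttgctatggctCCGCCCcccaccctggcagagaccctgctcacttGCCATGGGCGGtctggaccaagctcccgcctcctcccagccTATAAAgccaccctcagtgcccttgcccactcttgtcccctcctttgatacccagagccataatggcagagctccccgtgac
Slc8a1, chr17:81738338-81738637, minus strand: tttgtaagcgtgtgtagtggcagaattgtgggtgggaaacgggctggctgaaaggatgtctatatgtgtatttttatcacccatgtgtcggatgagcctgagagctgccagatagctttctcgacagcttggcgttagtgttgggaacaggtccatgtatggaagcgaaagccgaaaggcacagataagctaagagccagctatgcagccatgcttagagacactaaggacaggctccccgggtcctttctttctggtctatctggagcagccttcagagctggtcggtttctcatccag
The motifs searched were the estrogen-related receptor half-site AAGGTCA, the HNF1 half-site GTTAAT, the AP-2 site GCCNNNGGC, the Sp1 box GGGCGG and the TATA box TATAAA. Among all 32851 promoters of the same length, 4.72%, 7.10%, 16.6%, 35.7% and 13.6% held them, in that order. The Kl window held 3 Sp1 boxes. The Slc12a3 window held 2 Sp1 boxes, 1 AP-2 site that overlaps the second of them, and 1 TATA box. None of these letters was in the windows of Egf and Slc8a1. RefSeq gave 2 promoters for Egf, of which the first is shown. The second window, chr3:129725037-129725336, also held none of these letters. A match is a description of the letters and was not tested as a binding site.

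Each library held between 34874702 and 96803926 UMIs, and 6058 to 11739 cells per kidney passed the filters. Cells were clustered without the 10 genes, and classes were named from other markers, so the levels of the members were not used to form the classes. The thick ascending limb-like class, named from markers such as Cldn16, Cldn19 and Tmem207, held 227 and 173 cells in the naive, 257 and 228 in the rejecting, and 366 and 470 in the tolerized kidneys. The distal convoluted tubule-like class, named from markers such as Emx1, Wnk4 and Tmem52b, held 630 and 632, 111 and 123, and 222 and 243 cells. Nearly all naive cells of that class came from cluster 14 and nearly all graft cells from cluster 26, whereas thick ascending limb-like cells of all kidneys shared cluster 9. The collecting duct principal-like class, cluster 13, also carried the connecting tubule markers S100g, Trpv5, Klk1, Scnn1b, Scnn1g and Kcne1. No separate connecting tubule class was found, so this class may hold cells of both kinds. A further cluster 11, led by Calb1, Pvalb and Slc12a3, had a median of 1105 UMIs per cell. This cluster carried distal convoluted tubule markers such as Emx1, Wnk4 and Tmem52b. Among its 10 leading genes, however, connecting tubule markers (S100g and Klk1) outnumbered distal convoluted tubule markers (Abca13), so the naming rule left it unnamed. It held 601, 149, 206 and 453 graft cells against 2 and 3 naive cells, and it was not in any class. The naive distal cells carried more mitochondrial RNA. The median mitochondrial share of thick ascending limb-like cells was 37.0% in naive kidney 1 and 37.8% in naive kidney 2, whereas the rejecting pair had 24.3% and 25.6% and the tolerized pair 24.3% and 30.8%. In distal convoluted tubule-like cells the medians were 38.3% and 40.3%, 23.4% and 27.8%, and 20.8% and 30.7%.

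Levels were compared as UMIs summed per kidney and class and expressed as CPM, that is, scaled to a common library total, after correction of the totals by the trimmed mean of M values (TMM). The quasi-likelihood test of edgeR was run across all genes, with a gene called at a Benjamini-Hochberg false discovery rate (FDR) under 0.05. In what follows, 'with rejection' means rejecting against naive kidneys and carries every difference between those groups given above. Because the labels do not say more about the kidneys of a group, p-values measure only the spread between these samples. An exact test of 2 kidneys against 2 cannot give a two-sided p below 0.33.

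Across cell classes the members marked out the successive segments. Umod, Slc12a1 and Egf were highest in thick ascending limb-like cells, where Umod ranged from 13485 to 16624 unscaled CPM over the 6 kidneys, Slc12a1 from 3724 to 6527 and Egf from 1658 to 10674. Egf was next highest in distal convoluted tubule-like cells, at 587 to 2605 CPM, and the ranges of both classes overlapped across kidneys. Within each of the 6 kidneys Egf was higher in thick ascending limb-like cells. Umod in distal convoluted tubule-like cells was 2377 to 4294 CPM, below every thick ascending limb-like value. Slc12a3, the thiazide-sensitive cotransporter, was highest in distal convoluted tubule-like cells, at 3011 to 8267 CPM, against at most 53.6 CPM in collecting duct principal-like cells. Pvalb ranged from 884 to 1922 CPM and Trpm6 from 57.2 to 105 CPM in distal convoluted tubule-like cells. Calb1 was 2306 to 4379 CPM there and 845 to 2594 CPM in principal-like cells, with ranges that overlapped across kidneys. Within each of the 6 kidneys Calb1 was higher in distal convoluted tubule-like than in principal-like cells. Slc8a1, the exchanger, was 9.91 to 119 CPM and 6.21 to 131 CPM in the same classes. Slc8a1 was higher in distal convoluted tubule-like cells of the naive and rejecting kidneys and in principal-like cells of the tolerized kidneys. Kcnj1, the potassium channel, had its highest median in principal-like cells, at 636 to 961 CPM, with 567 to 709 CPM in distal convoluted tubule-like and 365 to 494 CPM in thick ascending limb-like cells. Kl was spread most evenly, with 375 to 1145 CPM in principal-like, 320 to 1236 CPM in distal convoluted tubule-like and 119 to 216 CPM in proximal tubule-like cells. In the unnamed cluster 11, whose cells were shallow, Slc12a3 was 2177 to 5161 CPM and Calb1 1616 to 5897 CPM over the 4 grafts.

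**Figure D1:**
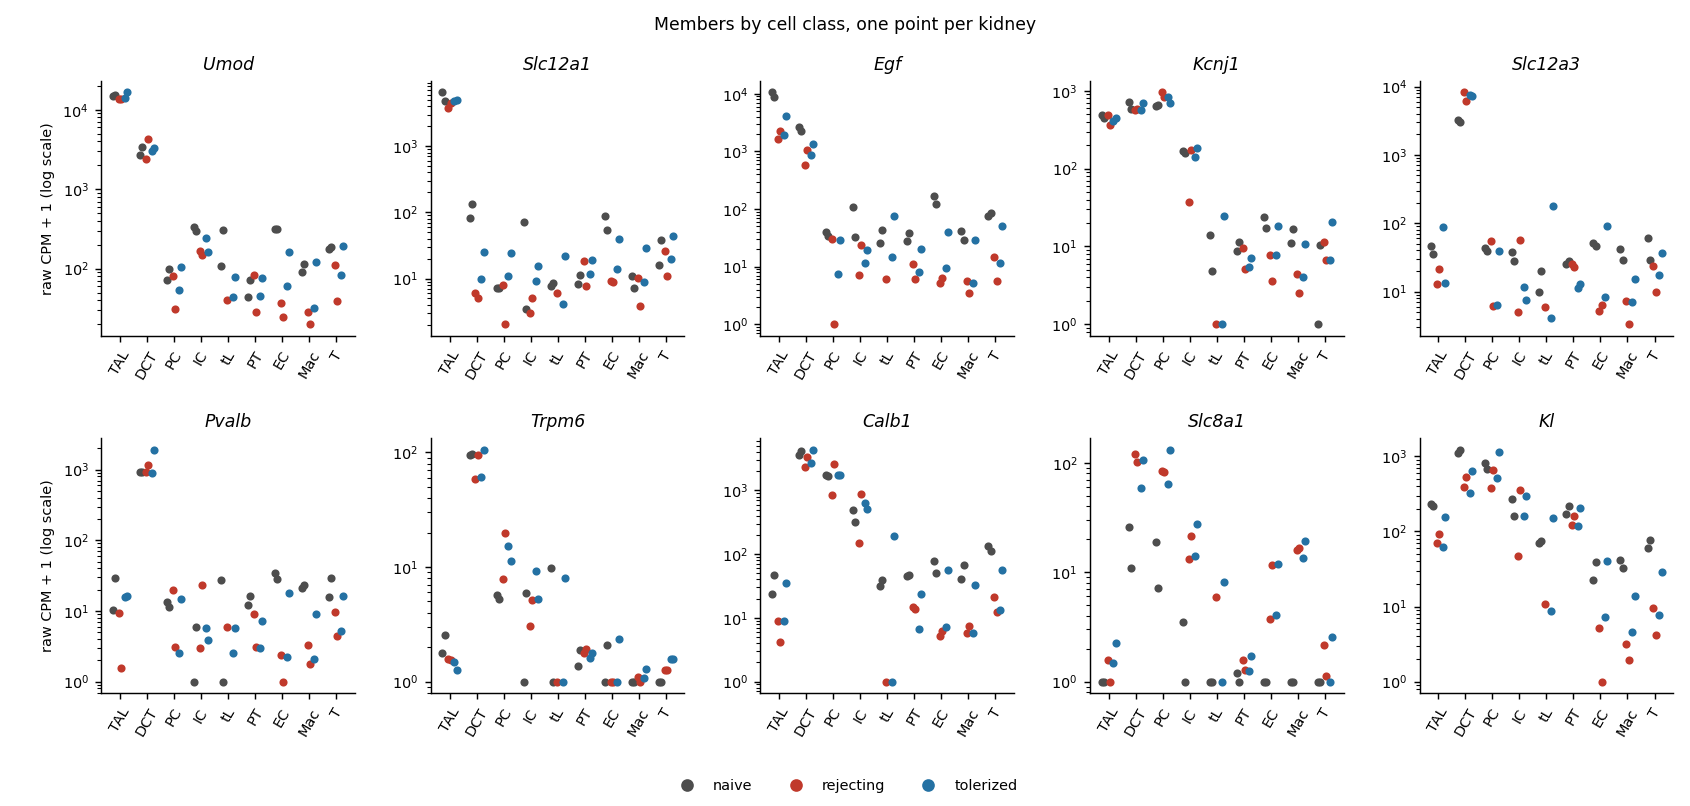
Level of each of the 10 genes by cell class, as unscaled CPM + 1 on a log axis, with 1 point per kidney, for thick ascending limb (TAL), distal convoluted tubule (DCT), collecting duct principal (PC), intercalated (IC), thin limb (tL), proximal tubule (PT), endothelial (EC), macrophage (Mac) and T cell (T) classes. Umod, Slc12a1 and Egf are highest in TAL-like cells, and Slc12a3, Pvalb and Trpm6 in DCT-like cells.

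In thick ascending limb-like cells, Egf was lower in rejecting and in tolerized kidneys than in naive kidneys, whereas the uromodulin and cotransporter genes that define the segment differed by less than the test could call. Egf stood at 11190 and 9277 CPM in the naive kidneys, 1617 and 2146 CPM in the rejecting kidneys, and 1845 and 4280 CPM in the tolerized kidneys. Every graft lay below both naive kidneys, and tolerized kidney 2 was the highest graft. Egf fell 5.44-fold in rejecting kidneys (log2 fold change -2.44, SE 0.34, edgeR FDR 0.000161) and 3.34-fold in tolerized kidneys (log2 fold change -1.74, SE 0.33, edgeR FDR 0.00291). Kl, the Klotho gene, was 246 and 229 CPM in naive, 67.1 and 88.3 CPM in rejecting, and 59.3 and 163 CPM in tolerized kidneys, again without overlap. It fell 3.06-fold with rejection (log2 fold change -1.61, SE 0.35, edgeR FDR 0.00524) and 2.12-fold in tolerized kidneys (log2 fold change -1.09, SE 0.33, edgeR FDR 0.046). The tolerized call of Kl was lost when naive kidney 1, naive kidney 2 or tolerized kidney 1 was left out, at edgeR FDR 0.164, 0.104 and 0.322.

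Calb1, low in this segment, was 23.8 and 49.1 CPM in naive, 7.64 and 3.10 CPM in rejecting, and 7.70 and 35.7 CPM in tolerized kidneys. Rejecting kidneys lay below naive ones, with a 6.33-fold fall (log2 fold change -2.66, SE 0.73, edgeR FDR 0.0203), while tolerized kidney 2 lay within the naive range. These levels were below those of T cell-like cells, which should lack Calb1. T cell-like cells had 134 and 112 unscaled CPM in naive kidneys (only 9 and 12 UMIs) and 19.97 and 11.2 CPM in rejecting kidneys. The thick ascending limb-like levels therefore could not be told from background. The call was lost with DESeq2 (adjusted p = 0.0699), with at most 20% mitochondrial UMIs (edgeR FDR 0.292), and without naive kidney 2 (edgeR FDR 0.0911) or rejecting kidney 2 (edgeR FDR 0.0973). Umod was 15677 and 16158 CPM in naive, 13149 and 13153 CPM in rejecting, and 13467 and 17263 CPM in tolerized kidneys. Its log2 fold change was -0.28 with rejection (edgeR FDR 0.475) and -0.05 in tolerized kidneys (edgeR FDR 0.932). Slc12a1, the sodium-potassium-chloride cotransporter, was 6842 and 5099 CPM, 3631 and 4301 CPM, and 4615 and 5116 CPM, with log2 fold changes of -0.59 (edgeR FDR 0.104) and -0.30 (edgeR FDR 0.476). The rejecting values lay below the naive ones and the tolerized values overlapped them. Kcnj1 was 518 and 468 CPM, 471 and 351 CPM, and 396 and 464 CPM, with a log2 fold change of -0.27 in rejecting kidneys (edgeR FDR 0.433).

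Of the 10 members, 8 had enough UMIs to be tested in thick ascending limb-like cells, and Slc8a1 and Trpm6 had not. With rejection 3 were called, all lower, where 17.9% of the 9582 genes tested were called (9.55% higher and 8.35% lower). In tolerized kidneys 2 were called, both lower, against a background of 12% (6.18% higher and 5.8% lower). With the replicate number as a block, Pvalb was called as well with rejection.

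The mitochondrial share of the cells moved with these differences. In cells with at most 20% mitochondrial UMIs the calls ended: the log2 fold change of Egf was -0.93 with rejection (edgeR FDR 0.0637) and -0.63 in tolerized kidneys (edgeR FDR 0.288), and that of Kl was -0.40 and -0.41. Only 33 and 19 naive cells were left at this limit, and Umod, which had not been called, then rose with a log2 fold change of 1.51 (edgeR FDR 0.00456) and 1.25 (edgeR FDR 0.0298). Windows of mitochondrial share, chosen after the data were seen, were read as CPM of nuclear genes. Egf was 4232 and 4441 CPM in naive cells of 0 to 20%, against 1775, 2439, 2593 and 2463 CPM in the grafts. From 20 to 35% it was 16341 and 7084 CPM against 2485, 3822, 2561 and 6810 CPM. From 35 to 50% the naive values were 19825 and 19022 CPM and the graft values 2663, 1865, 2423 and 5738 CPM. Naive kidneys thus lay above every graft within each window. Counted against Umod in the same cells, Egf gave 71.4 and 57.4 UMIs per 100 Umod UMIs in naive kidneys. The rejecting pair gave 12.3 and 16.3, and the tolerized pair gave 13.7 and 24.8. In the single windows that ratio was 54.7 to 84.0 in naive kidneys and 11 to 26.9 in grafts. From 0 to 20% the ratio also carries the higher Umod of the grafts given above, so there it does not measure Egf alone.

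**Figure D2:**
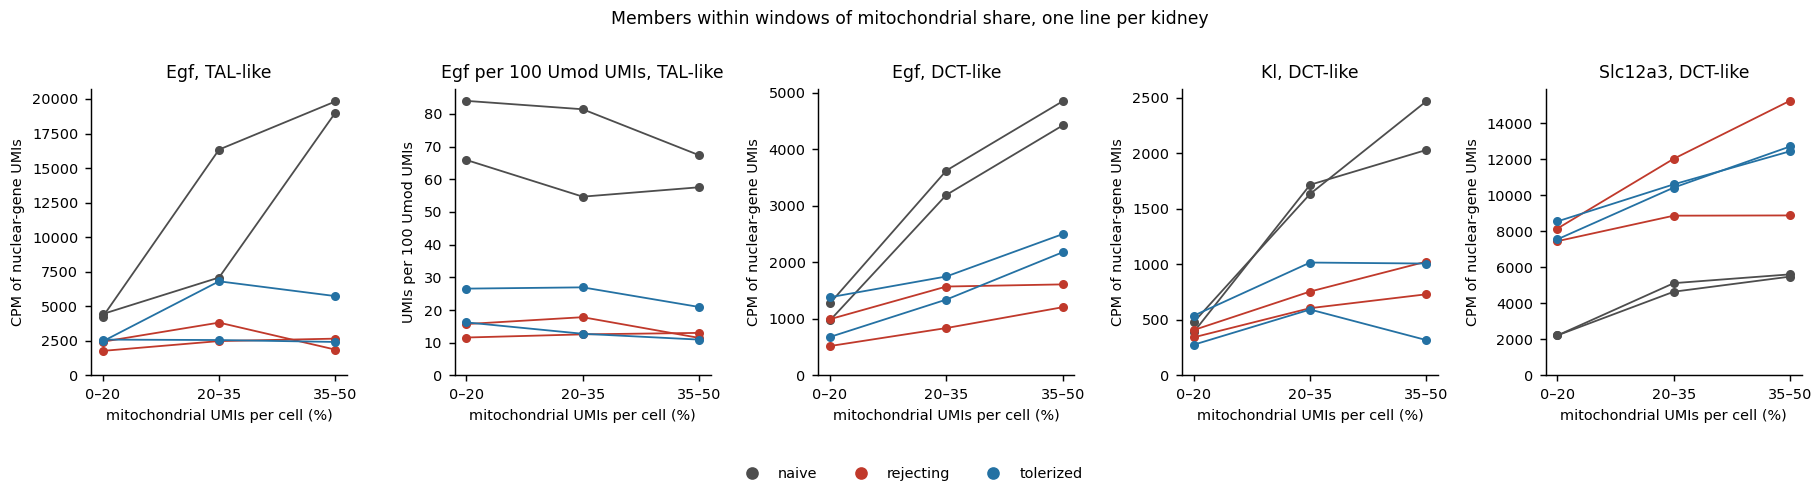
Members within windows of the mitochondrial share of the cell (percent of UMIs, x axis), as CPM of nuclear-gene UMIs or as Egf UMIs per 100 Umod UMIs, with 1 line per kidney, in thick ascending limb (TAL)-like and distal convoluted tubule (DCT)-like cells. Egf of the naive kidneys lies above all 4 grafts in each window of TAL-like cells, and Slc12a3 of the grafts lies above both naive kidneys in each window of DCT-like cells.

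Leukocyte and proximal tubule transcripts also differed between these sums. The 8 T cell markers together gave 6.27 and 3.09 unscaled CPM in naive, 138 and 34.9 CPM in rejecting, and 37.4 and 11.9 CPM in tolerized thick ascending limb-like cells, and 6 of the 8 were at 0 in each naive kidney. The 9 macrophage markers gave 226 and 218 CPM, 731 and 560 CPM, and 388 and 267 CPM. The 12 proximal tubule markers gave 1492 and 4198 CPM, 476 and 109 CPM, and 525 and 846 CPM. Their part in the values of the members was not tested.

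In distal convoluted tubule-like cells the members moved in opposite directions. Egf, Kl and Slc12a1 were lower and Slc12a3 and Slc8a1 were higher in both kinds of graft than in naive kidneys. Graft cells of this class came nearly all from cluster 26, so these differences do not cover cluster 11. In cluster 11, Slc12a3 was 2177 to 5161 unscaled CPM over the 4 grafts. That range overlapped the 3011 to 8267 CPM of the class over all 6 kidneys. Egf in cluster 11 was 490 to 937 CPM, Kl 178 to 466 CPM and Slc8a1 20.6 to 97.5 CPM. Slc12a3 was 3603 and 3361 CPM in naive, 7503 and 5820 CPM in rejecting, and 6934 and 7715 CPM in tolerized kidneys, and every graft lay above both naive kidneys. The cotransporter gene was 1.91-fold higher in rejecting kidneys (log2 fold change 0.94, SE 0.22, edgeR FDR 0.00651) and 2.10-fold higher in tolerized kidneys (log2 fold change 1.07, SE 0.22, edgeR FDR 0.00355). The rejecting call was lost without naive kidney 1 (edgeR FDR 0.0640) or naive kidney 2 (edgeR FDR 0.0923), and the tolerized call without naive kidney 2 (edgeR FDR 0.0738). Cells with at most 20% mitochondrial UMIs gave log2 fold changes of 1.60 (edgeR FDR 0.000116) and 1.72 (edgeR FDR 5.5e-05). In the windows, Slc12a3 of the grafts lay above both naive kidneys throughout, for example 8151, 7451, 8547 and 7553 CPM of nuclear genes against 2217 and 2223 CPM from 0 to 20%.

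Slc8a1, the basolateral sodium-calcium exchanger, was 27.8 and 11.1 CPM in naive, 108 and 94.0 CPM in rejecting, and 53.4 and 109 CPM in tolerized kidneys. The groups of grafts lay above the naive kidneys. It rose 4.98-fold with rejection (log2 fold change 2.32, SE 0.37, edgeR FDR 0.000572) and 4.06-fold in tolerized kidneys (log2 fold change 2.02, SE 0.36, edgeR FDR 0.00151). The difference was not particular to this segment, since Slc8a1 was also called higher in principal-like cells of both kinds of graft. Macrophage-like cells had 0 UMIs of Slc8a1 in both naive kidneys and 14.8, 15.6, 12.4 and 18.4 unscaled CPM in the grafts. Naive macrophage-like cells were few, so those zeros rest on far fewer UMIs than the graft values. Because the naive matrices were made with another gene list, the annotation used and the state of the kidney cannot be told apart for this gene.

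Egf in distal convoluted tubule-like cells was 2905 and 2524 CPM in naive, 533 and 995 CPM in rejecting, and 785 and 1396 CPM in tolerized kidneys, with every graft below both naive kidneys. It fell 3.55-fold with rejection (log2 fold change -1.83, SE 0.31, edgeR FDR 0.000782) and 2.49-fold in tolerized kidneys (log2 fold change -1.32, SE 0.30, edgeR FDR 0.00778). The tolerized call was lost with DESeq2 (adjusted p = 0.0555), without naive kidney 1 (edgeR FDR 0.0517) and without tolerized kidney 1 (edgeR FDR 0.0508). Kl was 1246 and 1380 CPM in naive, 352 and 495 CPM in rejecting, and 294 and 675 CPM in tolerized kidneys, again apart. It fell 3.10-fold (log2 fold change -1.63, SE 0.31, edgeR FDR 0.00188) and 2.71-fold (log2 fold change -1.44, SE 0.31, edgeR FDR 0.00494). In cells with at most 20% mitochondrial UMIs none of these 4 calls held, with log2 fold changes of -0.81 and -0.26 for Egf and of -0.44 and -0.24 for Kl. In that window the nuclear-gene CPM of Egf overlapped, at 1276 and 974 in 78 and 82 naive cells against 520, 994, 680 and 1382 in the grafts. From 20 to 35% they were apart, at 3622 and 3191 against 838, 1572, 1341 and 1750. Kl also overlapped from 0 to 20%, and it had naive values of 1717 and 1635 against 606, 756, 594 and 1017 from 20 to 35%.

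Slc12a1, the cotransporter of the preceding segment, was detected at a low level in distal convoluted tubule-like cells. It was 91.2 and 148 CPM in naive, 4.65 and 3.92 CPM in rejecting, and 8.11 and 25.7 CPM in tolerized kidneys. It fell with a log2 fold change of -4.80 (SE 0.52, edgeR FDR 2.2e-05) and -2.76 (SE 0.36, edgeR FDR 0.00012). T cell-like cells had 9.98 to 43.3 unscaled CPM of Slc12a1 over the 6 kidneys. The graft values lay within or below that range and could not be told from background, so the size of the fall is uncertain. When the shallow cluster 11 was added to the class, an alternative chosen after the data were seen, the calls ended, with log2 fold changes of -0.06 (edgeR FDR 0.954) and -0.99 (edgeR FDR 0.308). At most 20% mitochondrial UMIs ended the tolerized call of Slc12a1 (log2 fold change -1.10, edgeR FDR 0.19) and left the rejecting one (edgeR FDR 0.00592). The 10 thick ascending limb markers summed to 2175 and 1834 unscaled CPM in naive, 1204 and 1201 CPM in rejecting, and 1177 and 1498 CPM in tolerized kidneys in these cells, and their part was not tested.

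The other 5 members were not called in distal convoluted tubule-like cells. Pvalb was 1038 and 1015 CPM in naive, 827 and 1112 CPM in rejecting, and 811 and 2009 CPM in tolerized kidneys, and overlapped throughout. Calb1 was 4007 and 4679 CPM, 2093 and 3110 CPM, and 2474 and 4578 CPM, with log2 fold changes of -0.74 (edgeR FDR 0.0756) and -0.30 (edgeR FDR 0.505). The rejecting kidneys lay below the naive ones for this calcium-binding protein, and with DESeq2 (adjusted p = 0.0391), with at most 20% mitochondrial UMIs (edgeR FDR 0.0254) or without a filter on low counts (edgeR FDR 0.00235) it passed the threshold. Trpm6, the magnesium channel, was 106 and 107 CPM, 51.9 and 89.0 CPM, and 55.1 and 110 CPM, with log2 fold changes of -0.57 (edgeR FDR 0.19) and -0.36 (edgeR FDR 0.418). Tolerized kidney 2 was the highest of the 6 for both Trpm6 and Pvalb. Kcnj1 had a log2 fold change of -0.44 with rejection (edgeR FDR 0.141), and Umod one of -0.12 with rejection (edgeR FDR 0.793) and -0.12 in tolerized kidneys (edgeR FDR 0.809).

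All 10 members were tested in this class. With rejection 5 were called, 2 higher and 3 lower, where 24% of the 10330 genes tested were called (12.6% higher and 11.4% lower). In tolerized kidneys 5 were called, 2 higher and 3 lower, against 18.3% (9.49% higher and 8.83% lower). With the replicate number as a block, Calb1 was called as well with rejection (edgeR FDR 0.0279). The 8 T cell markers summed to 1.76 and 1.65 unscaled CPM in naive, 94.7 and 57.0 CPM in rejecting, and 21.9 and 5.55 CPM in tolerized kidneys, with 5 of the 8 at 0 in each naive kidney. The 9 macrophage markers summed to 38.4 and 43.4 CPM, 329 and 173 CPM, and 220 and 53.9 CPM, and the 12 proximal tubule markers to 2261 and 4487 CPM, 192 and 125 CPM, and 1258 and 970 CPM. Their part was not tested.

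**Figure D3:**
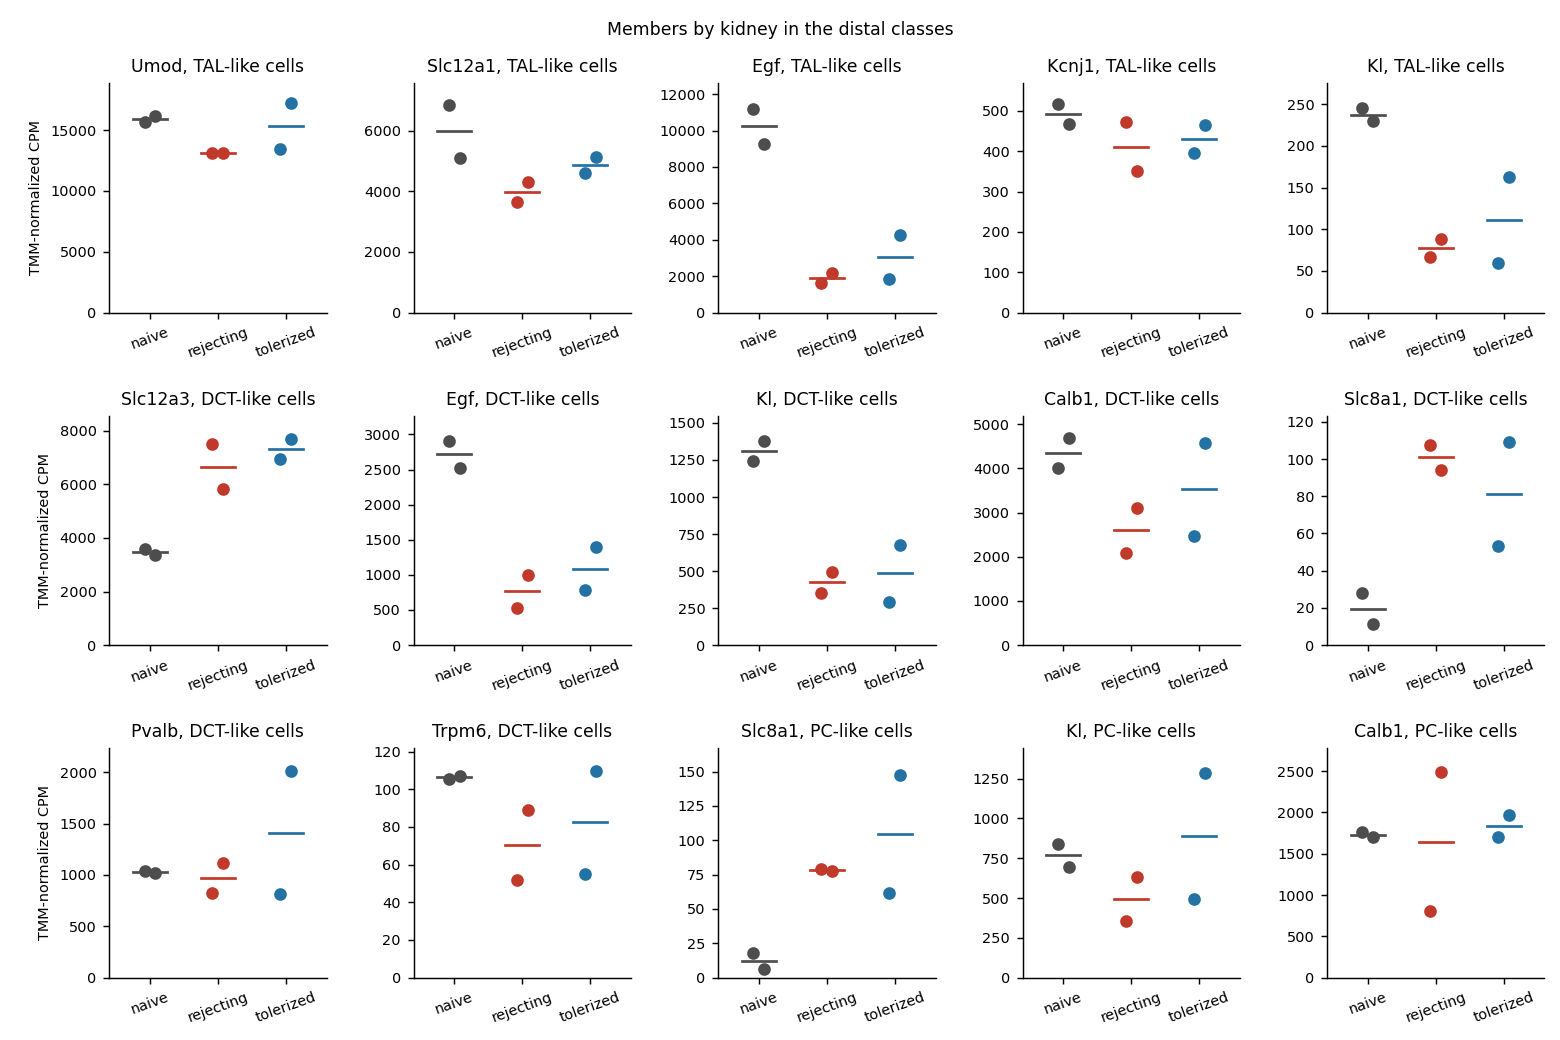
TMM-scaled CPM of members, with 1 point per kidney and a line at the mean of each group of 2, in thick ascending limb (TAL)-like, distal convoluted tubule (DCT)-like and collecting duct principal (PC)-like cells. Egf and Kl of all grafts lie below both naive kidneys in TAL-like and DCT-like cells, and Slc12a3 of all grafts lies above both naive kidneys in DCT-like cells.

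**Figure D4:**
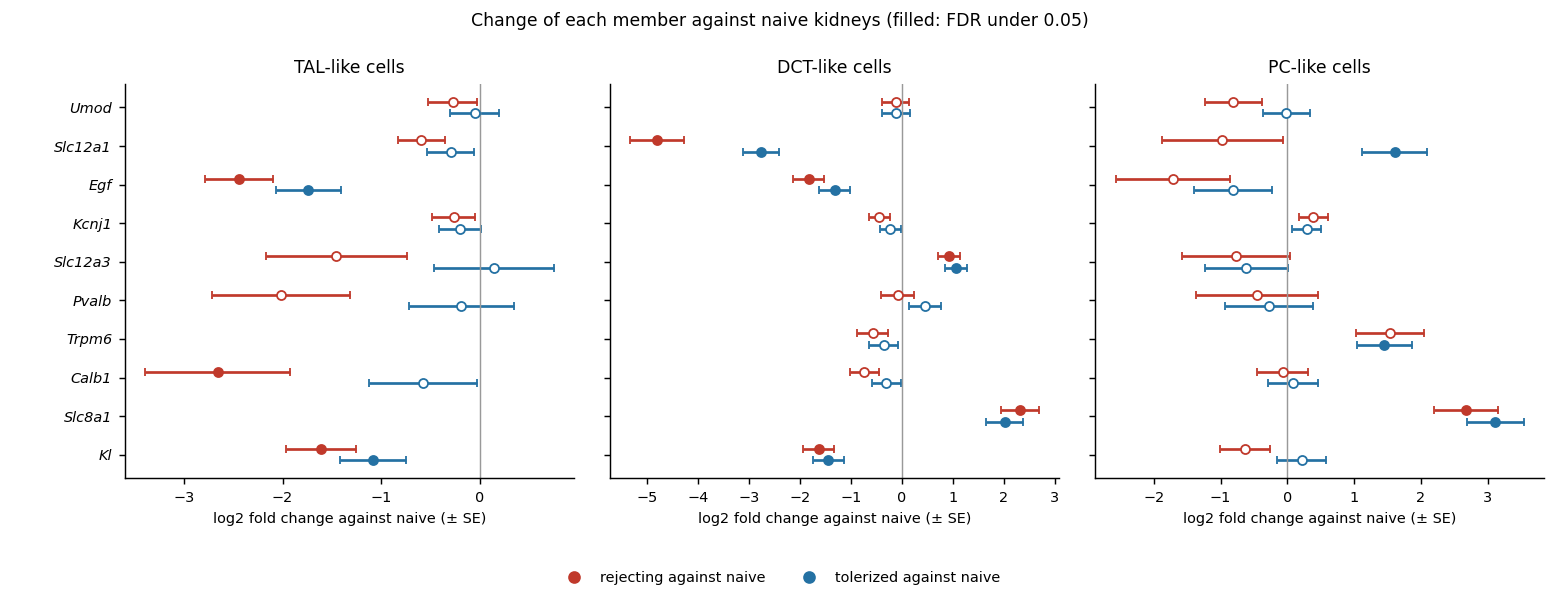
Log2 fold changes of the members against naive kidneys, with bars of 1 SE, in thick ascending limb (TAL)-like, distal convoluted tubule (DCT)-like and collecting duct principal (PC)-like cells. Filled points passed an FDR of 0.05, which in DCT-like cells were Slc12a1, Egf and Kl on the lower side and Slc12a3 and Slc8a1 on the higher side for both kinds of graft.

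Tolerized and rejecting kidneys, which share strain, surgery and gene list, were compared directly. No member was called in thick ascending limb-like cells, where 0.626% of all genes were called. An unadjusted edgeR p under 0.05 was found for 4 members, namely Egf and, all low in this class, Slc12a3, Pvalb and Calb1. The share of all genes under that unadjusted limit was not counted, here or in the graft comparisons below. Such counts are therefore not read as differences. Egf had a log2 fold change of 0.70 (SE 0.32, edgeR FDR 0.656), and its kidneys overlapped, since tolerized kidney 1 lay between the rejecting ones. Without tolerized kidney 1 the log2 fold change was 1.19 (edgeR FDR 0.0408). The log2 fold change of Kl was 0.53 (edgeR FDR 0.829). In distal convoluted tubule-like cells no member was called against 0.484% of all genes, and 1 member, Slc12a1, had an unadjusted p under 0.05 (edgeR FDR 0.234). Egf there had a log2 fold change of 0.51 (edgeR FDR 0.723). DESeq2 called no member in either class. Without a filter on low counts, Calb1, Slc12a3 and Pvalb passed in thick ascending limb-like cells, where they are low, and Slc12a1 in distal convoluted tubule-like cells. Tolerized kidney 2 was the deepest sample in these cells, with a median of 15612 UMIs per thick ascending limb-like cell against 3880 to 6237 in the others.

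The change from naive kidneys was compared between the segments with an interaction term over 10491 genes, of which 389 were called with rejection and 99 in tolerized kidneys. Egf had a change that was 0.54 higher on the log2 scale in distal convoluted tubule-like than in thick ascending limb-like cells with rejection (edgeR FDR 0.0621), which did not pass the threshold. For Kl the difference was -0.04 (edgeR FDR 0.956). Those of Slc12a1 and, with rejection, of Calb1 passed it.

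The collecting duct principal-like class held 52 to 379 cells per kidney and also carried connecting tubule markers. There Slc8a1 was 18.0 and 6.32 CPM in naive, 79.1 and 77.7 CPM in rejecting, and 61.6 and 148 CPM in tolerized kidneys. All grafts lay above the naive kidneys. It rose 6.38-fold with rejection (log2 fold change 2.67, SE 0.47, edgeR FDR 0.00152) and 8.66-fold in tolerized kidneys (log2 fold change 3.11, SE 0.43, edgeR FDR 0.000212). It was the 1 member called with rejection (18.2% of all genes), and 3 were called in tolerized kidneys (16.9%), the others being Slc12a1 (log2 fold change 1.61, edgeR FDR 0.0355) and Trpm6 (log2 fold change 1.45, edgeR FDR 0.0276). Trpm6 was at 4.74 and 4.38 CPM in naive and 13.9 and 11.6 CPM in tolerized kidneys, and Slc12a1 at 6.16 and 6.32 CPM and 9.77 and 26.5 CPM. Slc12a1 was no higher there than in T cell-like cells, which had 14.8 and 37.5 unscaled CPM in naive (1 and 4 UMIs) and 18.5 and 43.3 CPM in tolerized kidneys, so its values could not be told from background. The calls of both genes were lost with DESeq2 (adjusted p = 0.182 for Slc12a1 and 0.134 for Trpm6) and without either naive kidney or tolerized kidney 2 (edgeR FDR 0.0648 to 0.521), and that of Trpm6 also without tolerized kidney 1 (edgeR FDR 0.100) and with at most 20% mitochondrial UMIs (edgeR FDR 0.213). Calb1 was 1757 and 1698 CPM in naive, 806 and 2487 CPM in rejecting, and 1705 and 1963 CPM in tolerized kidneys, so the rejecting pair spanned the naive values. Kl, at 839.8 and 698 CPM, 358 and 631 CPM, and 496 and 1288 CPM, was not called. With at most 20% mitochondrial UMIs it passed the threshold as higher in tolerized kidneys (log2 fold change 0.73, edgeR FDR 0.0447). Its log2 fold change with rejection was then 0.56 (edgeR FDR 0.126). Between tolerized and rejecting kidneys no member was called in these cells (0.0854% of all genes), with 2 at an unadjusted edgeR p under 0.05.

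In proximal tubule-like cells Kl was 203 and 249.9 CPM in naive, 104 and 139 CPM in rejecting, and 111 and 217 CPM in tolerized kidneys. It fell 1.87-fold with rejection (log2 fold change -0.90, SE 0.31, edgeR FDR 0.0436). The call was lost with at most 20% mitochondrial UMIs (log2 fold change -0.38, edgeR FDR 0.314) and at resolution 0.8 (-0.85, edgeR FDR 0.0546). It was also lost without either naive or either rejecting kidney (log2 fold changes of -1.13 to -0.71). In tolerized kidneys the log2 fold change of Kl was -0.46 (edgeR FDR 0.273). Naive and graft cells of this class also came mostly from different clusters, the naive ones from 2, 3, 12, 16 and 37 and the graft ones from 4, 7, 8, 15, 19 and 21. Of the 10 members 4 were called with rejection, all lower, where 41.9% of all genes were called, and the others were Egf, Calb1 and Slc12a3. In tolerized kidneys 4 were called, all lower, against 31.5% of all genes, namely Egf, Calb1, Slc12a3 and Pvalb. Except for Kl, these genes were at 2.00 to 45.8 unscaled CPM in this class. The naive levels of Egf, Calb1 and Slc12a3 read below those of T cell-like cells, and those of Pvalb overlapped them. Naive T cell-like cells were few, with 5 and 9 UMIs of Egf and 9 and 12 of Calb1. Counting error on those levels is therefore large, and the order was not tested. Of these 7 calls without Kl, those of Egf with rejection and Slc12a3 in tolerized kidneys held in all alternatives and the others were lost in 2 to 6 of 12.

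The share of cells with at least 1 UMI of a gene was compared after each cell had been thinned to 1000 UMIs, which left out 5 to 16 thick ascending limb-like cells and at most 1 distal convoluted tubule-like cell per graft, and no naive cell. Egf was found in 91.6% (95% exact binomial interval 87.2 to 94.9) and 79.2% (72.4 to 85.0) of naive thick ascending limb-like cells. The rejecting shares were 53.8% (47.4 to 60.2) and 57.1% (50.1 to 63.8), and the tolerized shares 54.0% (48.6 to 59.3) and 81.3% (77.4 to 84.7). Rejecting kidneys lay below both naive kidneys, and tolerized kidney 2 lay between the naive ones. In T cell-like cells, which should lack the members and had medians of 1318 to 4813 UMIs before thinning, the share of Egf was 0.38% to 6.06% per kidney. For Kl the shares in thick ascending limb-like cells were 24.7% and 16.8%, 6.07% and 6.13%, and 5.43% and 17.4%, against 0.127% to 6.67% in T cell-like cells. Umod was found in 95.2% to 98.1% of these cells in every kidney and Slc12a1 in 88.2% to 96.5%, so those genes were near the ceiling of the measure. Kcnj1 was found in 27.4% to 36.6%.

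In distal convoluted tubule-like cells Egf was found in 70.2% and 68.8% of naive, 33.3% and 50% of rejecting, and 48.0% and 58.7% of tolerized cells, in the order of the levels. Kl was found in 45.6% and 47.6%, 22.5% and 30.3%, and 16.7% and 37.2%. All grafts lay below the naive kidneys for both genes. Without thinning the shares of Egf were 88.4% and 81.5%, 73.0% and 85.4%, and 83.3% and 91.4%, and those of Kl 74.9% and 71.0%, 72.1% and 85.4%, and 71.2% and 90.5%, with overlap, at medians of 3496.5 to 5473 UMIs per naive cell and 10619 to 21440 per graft cell. Slc12a3 was found in 87.5% and 78.0% of naive cells and in 91.8% to 95.9% of graft cells. Slc8a1 was found in 1.11% and 0.633% of naive cells, in 3.60% and 6.56% of rejecting cells, and in 3.17% and 5.37% of tolerized cells. T cell-like cells had Slc8a1 in at most 0.267% of cells of a graft and in 0 of 33 and 0 of 45 naive cells, whose exact intervals reach 10.6% and 7.87%, so the naive shares could not be told from background. Pvalb was found in 44.2% to 56.6% of cells in 5 kidneys and in 75.2% in tolerized kidney 2. Intervals cover counting error only.

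**Figure D5:**
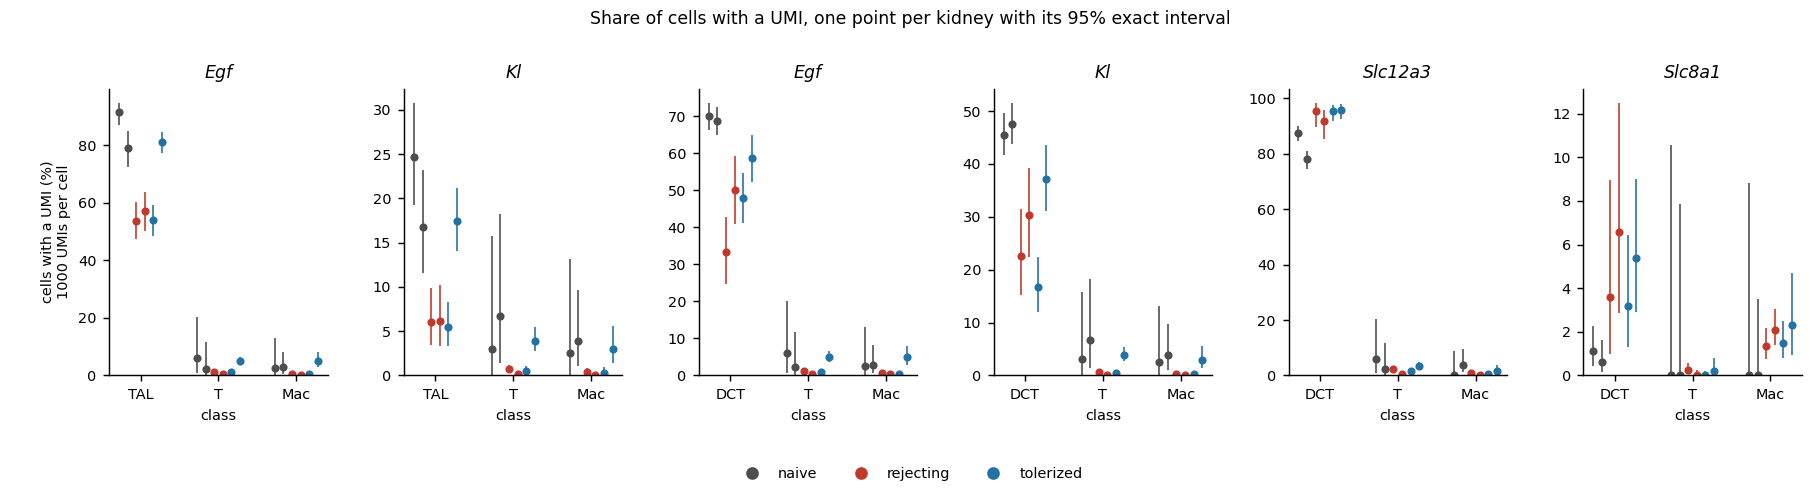
Percentage of cells with at least 1 UMI of a member after thinning to 1000 UMIs, with 1 point per kidney and its 95% exact binomial interval, in thick ascending limb (TAL)-like or distal convoluted tubule (DCT)-like cells and in T cell (T)-like and macrophage (Mac)-like cells. Egf lies at 91.6% and 79.2% in naive TAL-like cells and at 53.8% and 57.1% in rejecting ones.

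Segments also differed in how many cells were recovered. Thick ascending limb-like cells made up 3.46% ± 0.174 (SD, n = 2) of tubular cells in naive, 10.7% ± 4.43 in rejecting and 10.9% ± 3.61 in tolerized kidneys, and distal convoluted tubule-like cells 11.1% ± 1.59, 5.35% ± 2.96 and 6.01% ± 1.34. Each comparison with naive kidneys gave an exact permutation p of 0.33, the smallest possible with n = 2, two-sided. These shares count only cells with up to 50% mitochondrial UMIs, and naive distal cells had the higher mitochondrial medians. The effect of a higher limit was not tested. With cluster 11 added, the distal convoluted tubule-like shares were 9.97% and 12.2% for the naive pair, 17.7% and 15.1% for the rejecting pair, and 9.33% and 17.6% for the tolerized pair, and the direction turned. Summed over all cells of a kidney, Egf was 757 and 509.7 unscaled CPM in naive, 93.4 and 149 CPM in rejecting, and 143 and 552 CPM in tolerized kidneys. Such whole-kidney values mix the number of distal cells with the RNA in each, which cannot be told apart there.

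A list of 42 other genes of salt, calcium and magnesium handling was read in the same fits. In thick ascending limb-like cells 37 were tested. With rejection 2 were higher and 9 lower, in tolerized kidneys 1 was higher and 5 were lower, and none was called between the grafts, with 6 at an unadjusted edgeR p under 0.05. The shares of all genes called, given above, were 17.9% and 12%. Those lower with rejection included the potassium channel gene Kcnj15 (log2 fold change -2.98, edgeR FDR 0.00743), the calcium-binding S100g (-2.38, edgeR FDR 0.00143) and the plasma membrane calcium pump gene Atp2b4 (-2.05, edgeR FDR 0.00101). In tolerized kidneys the lower genes included the parathyroid hormone receptor gene Pth1r (-1.16, edgeR FDR 0.00801), Atp2b4 (-1.05, edgeR FDR 0.0313) and the vitamin D receptor gene Vdr (-0.95, edgeR FDR 0.0166). Cnnm2, linked to magnesium transport, was higher with rejection (1.27, edgeR FDR 0.0438). Slc9a3, the sodium-hydrogen exchanger, had 1 UMI in naive cells of this class against 484 in rejecting cells, a ratio of 255 with a counting interval of 45.6 to 10102.5. Tolerized cells had 1398 UMIs, a ratio of 219 with a counting interval of 39.3 to 8671. It was also at 0.293 CPM in naive proximal tubule-like cells against 43.8 CPM in rejecting and 39.5 CPM in tolerized ones. As for Slc8a1, the gene list used and the state of the kidney cannot be told apart for Slc9a3.

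In distal convoluted tubule-like cells 39 of the 42 were tested, with 4 higher and 8 lower with rejection, 4 higher and 6 lower in tolerized kidneys, and none called between the grafts, with 3 at an unadjusted edgeR p under 0.05. Of all genes, 24% and 18.3% were called against naive kidneys. The higher genes included the prostaglandin receptor gene Ptger3 (log2 fold change 2.25, edgeR FDR 0.00106), Klhl3, which encodes an adaptor that targets WNK kinases for degradation (1.38, edgeR FDR 0.00525), and the magnesium transporter gene Slc41a1 (1.20, edgeR FDR 0.0105). In tolerized kidneys they were 2.54 (edgeR FDR 0.000292), 1.89 (edgeR FDR 0.000673) and 1.09 (edgeR FDR 0.0136), in the same order. Ptger3, Klhl3, Cldn10 and, from the thick ascending limb-like cells above, S100g are also among the markers used in naming the classes. Cyp24a1, which inactivates vitamin D, had 42 UMIs in naive and 0 in rejecting cells, at least 6.86-fold lower when 3 counts over the group are taken as the floor. Cldn10 had 208 UMIs in naive and 3 in rejecting cells, a ratio of 34.0 with a counting interval of 11.5 to 166.

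The genes whose levels ran most like those of each member were taken over 83 sums of kidney and class, in 16 classes, from 8903 genes. These sums share libraries, so the correlations are descriptions. Ppp1r1a, Wfdc15b, Tmem207, Cldn16, Emx1, Tmem52b and S100g are also among the markers used in naming the classes. Their correlations with the members are therefore not independent of the classes. Egf was most like Ppp1r1a (Pearson r 0.948) and Gpx6 (0.875), and Umod was most like Ppp1r1a (0.900) and Wfdc15b (0.893). Slc12a1 ran with the thick ascending limb genes Tmem207 (0.816) and Cldn16 (0.746). Slc12a3 ran with Emx1 (0.670) and Ppp1r1a (0.661), Pvalb with Emx1 (0.637) and Sfrp1 (0.613), and Calb1 with S100g (0.949) and Pgam2 (0.860). Kcnj1 ran with Tmem52b (0.925) and Tfap2b (0.920), and Trpm6 with Lhx1 (0.756) and Clu (0.752). Slc8a1 ran with Ltc4s (0.697) and Ptges (0.669), and Kl with Cdo1 (0.854) and Emx1 (0.844).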

How the data were processed

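Libraries of 2 naive, 2 rejecting and 2 tolerized kidneys were analyzed, 1 per kidney, grouped by their titles. The authors deposited unnormalized UMI counts for every gene in each barcode, made with CellRanger on mm10 (version 3.0.1 in the headers of the transplanted kidneys, and not given in those of the naive kidneys). Only the 28208 genes listed for all kidneys were used.

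The filters required 500 UMIs and 250 genes per barcode and allowed up to 50% mitochondrial UMIs (6058 to 11739 cells per kidney passed). The cells with the highest Scrublet scores, at a rate of 0.8% per 1000 cells, were removed as doublets, leaving 46312 cells. Cells were clustered (scanpy 1.11.5, leidenalg 0.10.2, 2500 variable genes, 40 components, 20 neighbors, resolution 1.5) without the members, the list of 42 pathway genes, and ribosomal protein and mitochondrial genes. A cluster was named where at least 3 markers of a class were in at least 10% of cells at 2-fold or more over the mean of the clusters. It stayed unnamed if markers of another class outnumbered its own among its 10 leading genes, as in cluster 11. The same held if most of its cells were called doublets, or if it had few UMIs and no leading marker. Members and lists were chosen with earlier results of these data known.

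UMIs were summed per kidney and class and tested in all kidneys together with edgeR 4.0.16 (R 4.3.3; TMM, filterByExpr, quasi-likelihood test), with an FDR of 0.05, after a test on simulated data. No covariate was used. The SE of an edgeR log2 fold change was derived from the test, as its absolute value divided by the square root of the F statistic. Alternatives were DESeq2 1.42.0, its size factors, no filter on low counts, a mitochondrial limit of 20%, resolution 0.8, a replicate block, the transplanted kidneys alone, each kidney left out in turn, and, added after the data were seen, cluster 11 in the distal convoluted tubule-like class. Shares were thinned to 1000 UMIs (2000 as an alternative). Depth was 34874702 to 96803926 UMIs per library, and counting intervals cover counting error only. All 10 members were named, together with up to 3 pathway genes per direction, comparison and segment that had the largest log2 fold change among those called without overlap, and the 2 genes most correlated with each member (mean of at least 10 CPM). The mitochondrial windows, the Egf to Umod ratio and the genes named for few counts were chosen after values were seen. Promoters came from RefSeq, where 9 of the 10 members matched, and gene positions from GENCODE M21.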

Additional observations from a re-analysis of the deposited data

Results flagged for a closer look

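The change from naive kidneys differed between distal convoluted tubule-like and thick ascending limb-like cells for Slc12a1 and Calb1, by the interaction term of edgeR over 10491 genes. For Slc12a1 the change was lower in distal convoluted tubule-like cells by a log2 difference of -4.24 with rejection (FDR 2e-05) and of -2.52 in tolerized kidneys (FDR 6.6e-05). Slc12a1 was at 3.92 to 148 CPM in those cells and at 3631 to 6842 CPM in thick ascending limb-like cells, and its fall in the former was lost when cluster 11 was added. Its graft values in the former, 3.92 to 25.7 CPM, could not be told from background. For Calb1, with rejection, the change was higher in distal convoluted tubule-like cells by 1.88 (FDR 0.0389). Calb1 was at 2093 to 4679 CPM there and 3.10 to 49.1 CPM in thick ascending limb-like cells. The latter values lay below T cell-like cells, at 112 to 134 unscaled CPM in naive (9 to 12 UMIs) and 11.2 to 19.97 CPM in rejecting kidneys. This difference therefore rests on values that could not be told from background. The cause was not tested in either case.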

How the results depend on the processing

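Over 334 alternative values of the 27 member changes called in the report, 272 stayed past the threshold, 62 did not, and 0 changed direction. Thick ascending limb-like cells are given first and distal convoluted tubule-like cells second, with rejecting against naive, tolerized against naive and tolerized against rejecting kidneys in that order. Of all genes, 1715, 1148 and 60 were called in the first class and 2482, 1892 and 50 in the second. With at most 20% mitochondrial UMIs these became 358, 180 and 5, and 1162, 942 and 21, with fewer cells, and 1, 1 and 0 members were called in the first class and 3 in the second for tolerized against naive. With DESeq2, 692 and 1178 genes were called for tolerized against naive. Without a filter on low counts 287 and 293 genes were called between the grafts, with 3 members in the first class and 1 in the second, and 5 members in the first with rejection. The transplanted kidneys alone gave 107 genes between the grafts in the first class, and resolution 0.8 and cluster 11 added each gave 0 in the second.

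Leaving out 1 kidney at a time gave 880 to 1508, 502 to 1310 and 14 to 115 genes in the first class and 1527 to 2502, 922 to 2089 and 14 to 91 in the second. Members called were 2 to 4, 1 to 3 and 0 to 2, and 4 to 6, 4 to 7 and 0 to 2. The study assigns each kidney to 1 of 2 experiments, but the labels do not tie these to the replicate numbers, and same-numbered kidneys did not deviate together (correlation of deviations -0.06 to 0.08). The replicate block gave 104 genes between the grafts in the first class, and 4 and 6 members with rejection, Pvalb in the first and Calb1 in the second being added, and it ended the call of Pvalb in proximal tubule-like cells of tolerized kidneys (FDR 0.0515).

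The other changes of direction were in values that had not been called. At the 20% limit, log2 fold changes of Umod were 1.51 and 1.25 in the first class and 0.85 and 1.15 in the second, against naive. Those of Kcnj1 were 0.15, 0.14, 0.26 and 0.39, those of Slc12a1 in the first 0.033 and 0.27, and those of Trpm6 in the second 0.084 and 0.47. Kl between the grafts was -0.013 in the first class, and in principal-like cells with rejection Calb1 was 0.28 and Kl 0.56. Umod was 0.027 in the first class of tolerized kidneys without a filter, and in the second with rejection 0.056 at resolution 0.8 and 0.061 with cluster 11. Without 1 kidney, tolerized against naive, Umod ran from -0.24 to 0.13 in the first class and -0.31 to 0.057 in the second, Pvalb from -0.36 to 0.97, Trpm6 from -0.96 to 0.052 and Calb1 from -0.83 to 0.080. With rejection Umod ran from -0.65 to 0.27 and Pvalb from -0.32 to 0.12 in the second. Between the grafts Egf ran from -0.029 to 1.19 and Kl from -0.39 to 1.07 in the first, and Slc12a3 from -0.025 to 0.33, Slc8a1 from -0.91 to 0.13 and Kl from -0.53 to 0.68 in the second. In principal-like cells Calb1 ran from -1.11 to 0.53 with rejection and from -0.016 to 0.19 in tolerized kidneys, and Kl from -0.63 to 0.75 in tolerized kidneys.

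Without thinning, the difference from naive in the percentage of cells of the second class was 2.40 points for Egf in tolerized kidneys, and 5.74 and 7.87 points for Kl with rejection and in tolerized kidneys, at greater depth in the grafts. The share of tubular cells in the second class differed from naive by 5.71 and 2.53 points at resolution 0.8 and by 5.31 and 2.38 points with cluster 11, and between the grafts by -3.18 and -2.93 points. The first class differed between the grafts by -0.59 points at the 20% limit and by -2.89 to 3.37 points without 1 kidney, and the second by -1.43 to 2.76 points. With 2 kidneys per group, differences smaller than the spread of a pair could not be resolved.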

Other observations

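Among distal convoluted tubule-like cells thinned to 2000 UMIs, Calb1 was found more often in cells with a Pvalb UMI than in cells without one in 5 of 6 kidneys. The shares were 70.6% against 58.5% and 77.9% against 62.7% in naive, 52.7% against 41.2% and 82.6% against 52.9% in rejecting, and 47.1% against 52.4% and 88.9% against 59.5% in tolerized kidneys. Tolerized kidney 1 went the other way.

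Among thick ascending limb-like cells with a Umod UMI, also thinned to 2000 UMIs, Egf was found in 97.6% and 90.5% of naive, 69.9% and 75.6% of rejecting, and 69.2% and 90.5% of tolerized cells. Both rejecting kidneys and tolerized kidney 1 lay below both naive kidneys.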
